A study of Mus musculus with 2 samples.

Results

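The interferon response and antigen presentation genes described here are a list of 38 mouse genes, taken by symbol from a table of 14501 rows, and 28 of the 38 have a row. They were set apart by role: 10 of 11 listed genes of class I antigen presentation, 7 of 8 of RNA sensing, 5 of 8 of interferon signalling and 6 of 11 interferon-induced effectors. Psmb8, Ifih1, Irf2, Irf7, Usp18, Isg15, Ifit1, Ifit3, Oasl2 and Rsad2 have no row and were not analysed here. The RNA came from 46C mouse embryonic stem cells, which carry a green fluorescent protein reporter at Sox1, and 1 culture was sequenced per vector.

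Cells with the empty vector gave the library titled PB. Cells with a vector that overexpresses the homeobox transcription factor Gbx2 gave the library titled PB-Gbx2. Both cultures were grown in serum medium with LIF on gelatin, and the labels give passages 21 to 24 for both. The source names of the labels contradict the titles, giving the Gbx2 cells to the library titled PB. Groups follow the titles here, and by the source names every direction below would be turned around. Gbx2 itself had a level of 345 in the library titled PB and 1178 in the library titled PB-Gbx2. The table does not separate vector reads from reads of the endogenous gene.

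Cells cut cytosolic proteins with the proteasome, carry the peptides into the endoplasmic reticulum and show them on the surface on class I heavy chains paired with beta-2 microglobulin. Cytosolic sensors of viral RNA, such as RIG-I (Ddx58), signal through Mavs, Tbk1 and Irf3 to switch on type I interferon. Secreted interferon binds the Ifnar1 and Ifnar2 receptor and acts through Stat2 and Irf9, among others, on the interferon-stimulated response element (ISRE) of its target genes. Embryonic stem cells make and answer interferon weakly, carry little class I on their surface, and express some of the antiviral genes, such as the Ifitm genes, without interferon.

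The DNA next to the start sites of these genes is shown first, because interferon-activated factors and NF-kappa B are known to bind elements in such DNA. RefSeq windows of build GRCm38.p6, from 250 bases before to 50 bases after each start, were found for 27 of the 28 genes. Both strands were searched for a core of the ISRE, GAAANNGAA, which was in 11 of 34 windows of these genes (32.4%) and in 8.56% of all 32851 windows. The matches belong to 11 genes. For 10 of them the match furthest upstream is printed, on the strand that reads as the core and with the core in capitals. Adar, matched only in the window of a later start, is left out of the lines. Oas1a, Bst2 and Eif2ak2 each hold a further match that overlaps the printed one, and Ifitm3 a further one that begins within the printed stretch.

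B2m (chr2:122147538-122147566, plus strand): ataagaacatGAAACTGAAaatgggaaag
Psme1 (chr14:55578494-55578522, minus strand): agcgggaaggGAAAGCGAAagcacagctc
Ddx58 (chr4:40239804-40239832, plus strand): ctggccatagGAAATCGAAactgcctcag
Trim25 (chr11:88999384-88999412, minus strand): ggaaggaatcGAAACTGAAcaggaggggc
Eif2ak2 (chr17:78882536-78882564, minus strand): agtccgccggGAAAACGAAacagaagaga
Stat2 (chr10:128270267-128270295, minus strand): ctagggaaagGAAACTGAAaccagggtgc
Bst2 (chr8:71537584-71537612, minus strand): ggcattccagGAAAATGAAactgaaaggc
Ifitm2 (chr7:140955989-140956017, minus strand): ccaccaacagGAAAAGGAAattgctagag
Ifitm3 (chr7:141010724-141010752, minus strand): caaaattcagGAAAAGGAAacttctgaga
Oas1a (chr5:120907527-120907555, minus strand): cccttctcggGAAATGGAAactgaaaatc

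The 250 bases before the start of the heavy chain genes H2-K1 and H2-D1 are printed because these sister genes differed in their ratio between the libraries. Over 190 aligned bases, 166 were identical (87.4%). Both stretches hold the word GGGATTCCC (in capitals), which reads as an NF-kappa B site. This word, on either strand, was in 0.353% of all windows, and among the 28 genes it was also found for Irf1. The exact core GAAANNGAA was not found in the window of H2-K1 or of H2-D1. Other forms of the ISRE were not searched, so this does not show that the element is absent.

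H2-K1 (chr17:34000348-34000597, minus strand): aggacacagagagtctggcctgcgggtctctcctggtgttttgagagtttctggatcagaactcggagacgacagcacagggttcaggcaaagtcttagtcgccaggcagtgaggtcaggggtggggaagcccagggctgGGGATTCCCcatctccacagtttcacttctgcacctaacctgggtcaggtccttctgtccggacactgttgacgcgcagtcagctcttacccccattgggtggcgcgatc
H2-D1 (chr17:35262844-35263093, plus strand): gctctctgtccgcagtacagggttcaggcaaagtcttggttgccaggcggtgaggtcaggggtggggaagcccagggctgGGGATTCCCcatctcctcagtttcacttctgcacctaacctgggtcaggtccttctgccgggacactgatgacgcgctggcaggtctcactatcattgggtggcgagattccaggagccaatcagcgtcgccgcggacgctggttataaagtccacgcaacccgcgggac

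Psmb9 and Tap1 are transcribed away from each other, and the 225 bases between their starts are printed on the strand of Tap1 because they lie before the starts of both genes. No capitals are used, since none of the words searched was found there.

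Psmb9 to Tap1 (chr17:34187331-34187555, plus strand): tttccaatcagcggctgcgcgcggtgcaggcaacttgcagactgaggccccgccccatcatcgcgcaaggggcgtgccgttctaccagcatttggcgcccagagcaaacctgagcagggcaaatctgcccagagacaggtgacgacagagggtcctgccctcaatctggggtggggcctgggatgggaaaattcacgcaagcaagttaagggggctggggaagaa

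Levels are the authors' normalized values, rounded to whole numbers. Sorted by size, the levels of both libraries are identical down all 14501 rows and each library sums to 16528899, so depth is unknown and any difference in overall distribution between the libraries has been removed. Levels are not divided by gene length and are compared only within a gene or, for marker lists, as the same sum in both libraries. With 1 library per group there is no replicate error and no test, and a difference was set beside the spread of genes of similar level. For this, all rows were put into 20 groups by mean level with at least 725 rows each, and the place of a gene's log2 ratio within its group is given as a percentile. Ratios are log2 of (level + 1) in PB-Gbx2 over PB, so that a negative value means lower in PB-Gbx2, and a gene counts as at least 2-fold or 1.5-fold apart by this ratio. Fold values given for single genes are ratios of the levels themselves, which differ slightly from it at low levels. In bulk RNA, fewer cells that express a gene and less of its RNA per cell cannot be told apart.

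The labelled cell type was checked with marker genes. All 9 stem cell markers had a row, with a summed level of 98376 in PB and 125658 in PB-Gbx2 (89458 and 105786 without Nanog). Single stem cell markers went different ways: Zfp42 (8320 and 16671) was higher, Tdgf1 stood at 31035 in both libraries and Lin28a (4206 and 2863) was lower. Of 18 leukocyte markers, 9 had a row, with sums of 2271 and 3097, and Ptprc, Csf1r, Lyz2, Tyrobp and Fcer1g were among the 9 without one. The leukocyte sum was carried by Laptm5, without which it was 1245 and 1149, the opposite direction. Fibroblast markers (9 of 16 with a row) summed to 4081 and 3331, and endothelial (7 of 9) to 1190 and 2223 (696 and 849 without Eng). Primitive endoderm markers (6 of 10) summed to 1672 and 2439 (183 and 318 without Lama1). Trophoblast markers (6 of 10) summed to 1647 and 818 (1270 and 764 without Krt19). The 4 of them at least 2-fold lower were the keratin genes Krt7, Krt8, Krt18 and Krt19, while Eomes (128 and 215) was higher. Cdx2, Elf5, Gata3 and Hand1 had no row. The part of these shifts in the differences below was not tested.

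Most of the interferon and class I genes differed little between the libraries. Of the 28, 23 were within 1.5-fold, and 2 were higher and 3 lower by at least that, where 11.6% and 12.2% of all rows were. The log2 ratio was above 0 for 11 genes and below 0 for 17, with a median of -0.11 against 0.00 over all rows. The ratios ran from -1.20 (Ddx58) to 1.01 (Oas1a). At least 2-fold higher in PB-Gbx2 was 1 gene, Oas1a (3.57%), where 5.14% of all rows were. At least 2-fold lower were 2 genes, Ddx58 and H2-K1 (7.14%), where 5.25% of all rows were. These shares are near those of the whole table. Among the 25 genes with a mean level of at least 100, the same 3 genes passed (4.0% higher and 8.0% lower), and the shares of all 10625 rows at that level were 1.93% and 1.88%.

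**Figure D1:**
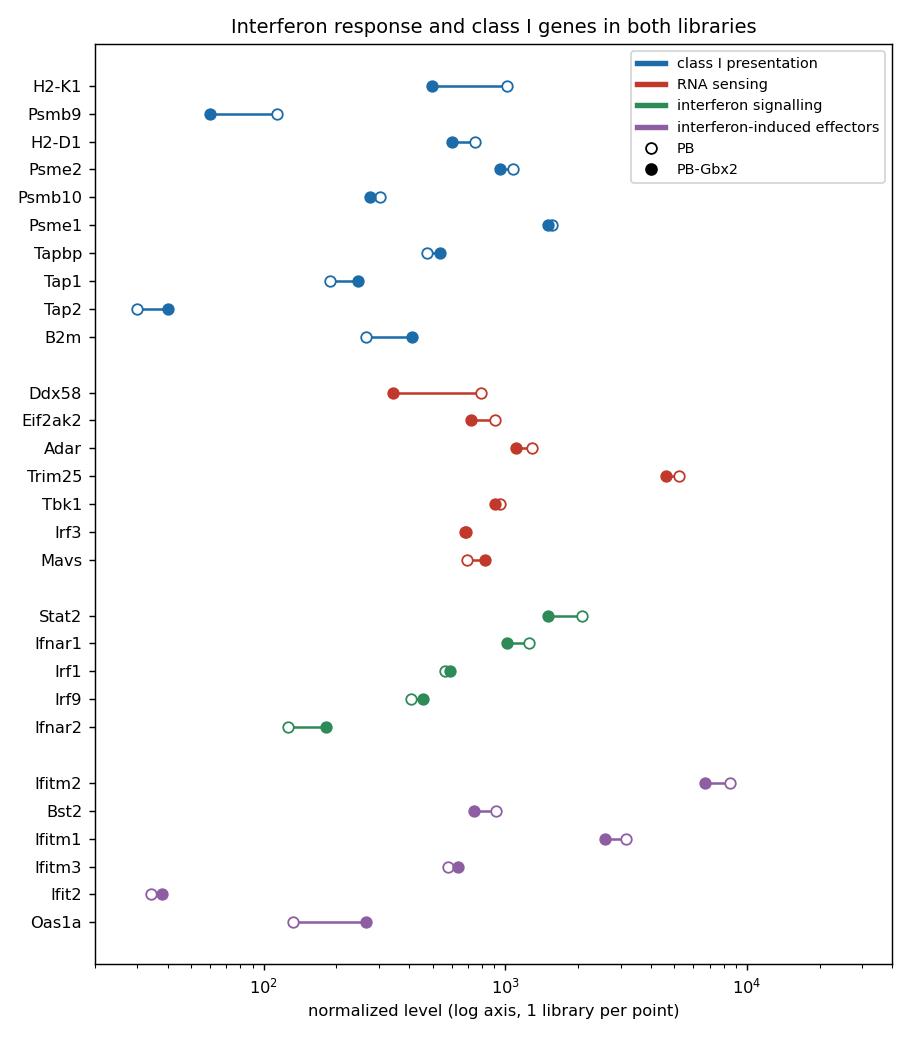
Normalized level (log axis) of the 28 genes in the PB library (open circles) and the PB-Gbx2 library (filled circles), grouped by role and ordered by ratio, with 1 library per circle. The longest lines belong to Ddx58 (791 and 344), H2-K1 (1012 and 496) and Oas1a (132 and 266), and most pairs of circles lie close together.

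Only Ddx58 and H2-K1 of the 28 genes lay in the lowest 2.5% of their level group, and none lay in the highest 2.5%. In all, 7 of the 28 lay more than 1 SD of their level group from 0 and 2 more than 2 SD. The shares of all rows past these SD limits were not counted, so the counts do not show an excess. Psmb9, at -0.91, fell just short of the 2-fold limit, and Oas1a and H2-K1 (-1.03) just passed it. In the authors' deposited table none of the 28 genes has an adjusted p under 0.05, against 34 of all rows. There the lowest adjusted p is 0.503 for Ddx58, followed by 0.722 for H2-K1, and the other 26 are listed at 1. The authors' unadjusted p-values were not counted over all rows, so no count of them is given for the 28. Those p-values, too, come from single libraries.

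**Figure D2:**
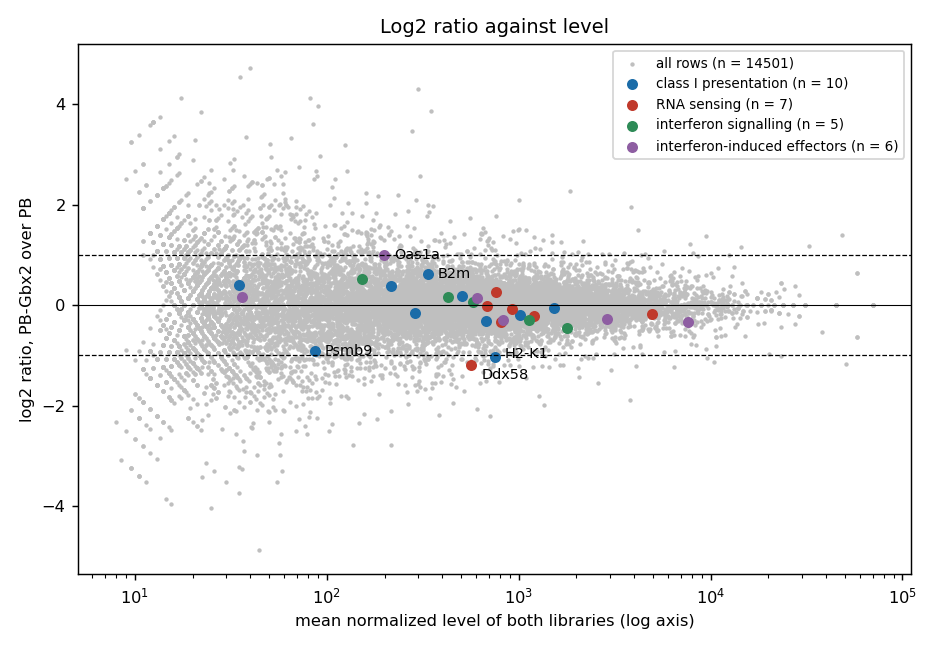
Log2 ratio of PB-Gbx2 over PB against mean level (log axis) for all 14501 rows (grey) and the 28 genes coloured by role, with dashed lines at 2-fold. Ddx58 and H2-K1 lie below the lower line, near the lower edge of the grey points at their level, while Psmb9 and Oas1a lie where the grey points spread more widely.

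Within class I presentation, 1 of 10 genes, H2-K1, was at least 2-fold lower and none was 2-fold higher, where 5.25% and 5.14% of all rows were. In all, 6 genes lay below 0 and 4 above, as did 7097 and 7136 of all 14501 rows. H2-K1, a classical heavy chain that displays peptides to cytotoxic T cells, had a level of 1012 in PB and 496 in PB-Gbx2. It was 2.04-fold lower, at percentile 0.97 of its level group. H2-D1, the other classical heavy chain on the list, stood at 750 and 602, 1.25-fold lower and at percentile 19.3. The level was higher in PB for both, and the difference of H2-D1 was inside the spread of genes of its level.

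B2m, the beta-2 microglobulin light chain that every class I molecule needs, had a level of 265 in PB and 410 in PB-Gbx2, 1.55-fold higher. Its ratio of 0.63 was at percentile 93.1 of its level group, whose SD was 0.50. Of the subunits that form the peptide transporter, Tap1 stood at 188 and 246 (1.31-fold higher) and Tap2 at 30 and 40 (1.33-fold). Their ratios were under 1 SD of their level groups (0.55 and 0.98). Tapbp, the tapasin chaperone that couples the transporter to empty class I molecules, stood at 474 and 536, a 1.13-fold difference.

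The immunoproteasome replaces catalytic subunits of the standard proteasome when interferon acts. Psmb9, 1 of these subunits, had a level of 114 in PB and 60 in PB-Gbx2, 1.90-fold lower, at percentile 11.2. Tap1, which starts on the other side of the 225 bases printed above, was higher in the library where Psmb9 was lower. Psmb10, a further inducible subunit, stood at 304 and 274 (1.11-fold lower). The activator subunits Psme1 (1563 and 1500) and Psme2 (1078 and 946), which open the proteasome gate, differed by at most 1.14-fold. The constitutive counterparts also differed little: Psmb5 stood at 882 and 904, Psmb6 at 4059 and 3757, Psmb7 at 1239 and 1060, Psme3 at 3817 and 3378 and Psme4 at 6744 and 6524. None of these 5 differed by more than 1.17-fold, so no counterpart was higher by as much as Psmb9 was lower. For Psmb5 the share of words that occur in another gene is 57.06%.

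Among the other genes of class I presentation, 25 of 33 had a row, of which 4 were at least 2-fold lower (16%) and none was 2-fold higher, where 5.25% and 5.14% of all rows were. The median was -0.18. The Qa region heavy chains H2-Q2 (176 in PB and 30 in PB-Gbx2) and H2-Q7 (280 and 106) were 5.87-fold and 2.64-fold lower, at percentiles 0.14 and 1.24. H2-Q6 (82 and 35), named after its value was seen, was 2.34-fold lower at a low level. Lnpep, a peptidase of endosomes that trims peptides for cross-presentation, stood at 774 and 358, 2.16-fold lower. Nlrc5, the transactivator of class I genes, had the low levels 24 and 40.

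The class I heavy chain genes of both lists were then read together by their names, a grouping made after the values were seen. Of 18, 11 had a row, and 10 of the 11 had a lower level in PB-Gbx2 (9 of 10 without the pseudogene H2-Bl). H2-K1, H2-Q2, H2-Q6 and H2-Q7 were at least 2-fold lower (36.4% of the 11) and none was 2-fold higher, where 5.25% and 5.14% of all rows were. The median was -0.59. Further ones, named after their values were seen, were nonclassical H2-T22 (124 and 116) and H2-M3 (68 and 58), H2-Bl (306 and 161), which RefSeq lists as a transcribed pseudogene, and H2-M5, which alone of the 11 had the higher level in PB-Gbx2 (756 and 1001). The class I pseudogenes H2-K2 (76 and 25) and H2-M6-ps (666 and 1020), which are on neither list, went opposite ways. Heavy chain genes share stretches of sequence to differing extents. The share of 50-base words in the longest GENCODE M21 transcript of each gene that also occur in another gene was counted. It was 35.8% for H2-T22, 32.0% for H2-Q6, 27.1% for H2-Q7, 14.3% for H2-D1 and 11.75% for H2-Bl. For H2-Q4 and H2-Q10, named after their values were seen, it was 22.03% and 19.65%. For H2-Q2 it was 8.74%, for H2-K1 8.11%, for H2-M5 1.04% and for H2-M3 0.58%. The split of reads among genes that share words is uncertain. Without genes that share over 10% of their words, 2 of the other class I presentation genes, in place of 4, were at least 2-fold lower. These were H2-Q2 and Lnpep, which is not a heavy chain gene. The heavy chain genes that share under 10% are H2-K1, H2-Q2, H2-M3 and H2-M5. Of these, H2-K1 and H2-Q2 were at least 2-fold lower, H2-M3 was lower by less and H2-M5 was higher.

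These genes lie in the major histocompatibility complex, and the genes between them were read as a background for the locus. From Tapbp to H2-M3, in the gene order of RefSeq (GRCm38.p6), 116 genes had a row. The 99 that are neither class I genes nor part of the peptide supply had a median of -0.04, with 5 genes at least 2-fold higher (5.05%) and 9 lower by as much (9.09%). The median of the 4 peptide supply genes there, Tapbp, Psmb9, Tap1 and Tap2, was 0.28, with Psmb9 below 0.

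**Figure D3:**
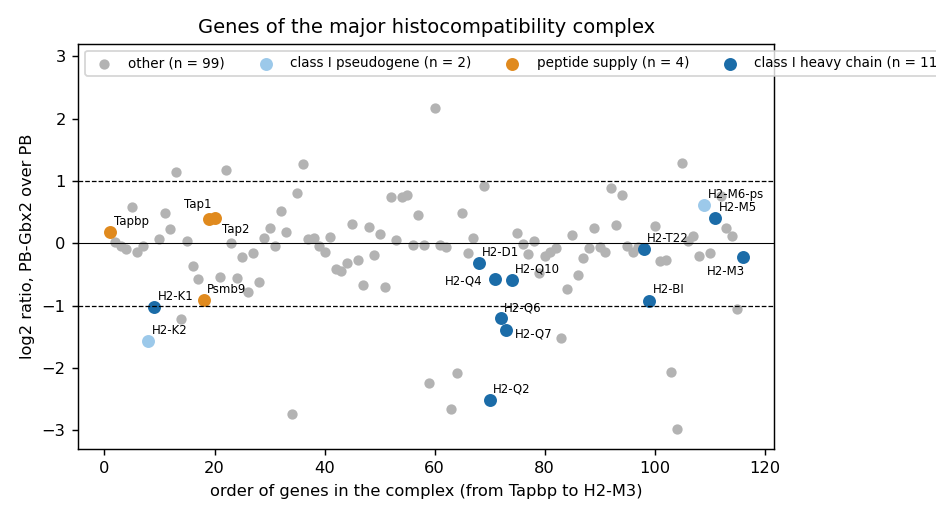
Log2 ratio of PB-Gbx2 over PB for 116 genes of the major histocompatibility complex in chromosomal order (x axis: rank of the gene from Tapbp to H2-M3), with class I heavy chains in dark blue, class I pseudogenes in light blue, peptide supply genes in orange and all others in grey. H2-K1, H2-Q2, H2-Q6 and H2-Q7 lie below the dashed line of 2-fold, while grey points around them scatter on both sides of 0. H2-Bl, which RefSeq lists as a transcribed pseudogene, is drawn with the heavy chains in dark blue.

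Of the 7 RNA sensing genes, 1 was at least 2-fold lower in PB-Gbx2, Ddx58, and none was 2-fold higher, where 5.25% and 5.14% of all rows were. In all, 6 lay below 0, as did 7097 of 14501 rows, and the median was -0.18. The other 6 genes were within 1.5-fold. Ddx58, the RIG-I helicase that binds viral RNA with a triphosphate end, had a level of 791 in PB and 344 in PB-Gbx2. It was 2.30-fold lower, at percentile 0.41 of its level group (SD 0.38). Dhx58, the related helicase LGP2, was also lower (76 and 24, 3.17-fold), but at a level where such ratios are more common (percentile 4.41).

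The adaptor and kinase that act after RIG-I did not share this size of difference. Mavs, the mitochondrial adaptor, stood at 691 and 824, 1.19-fold higher in PB-Gbx2. The kinase Tbk1 (948 and 902) and its substrate Irf3 (690 and 678), the transcription factor that turns on the interferon beta gene, differed by at most 1.05-fold. Trim25, a ubiquitin ligase that helps to activate RIG-I, stood at 5234 and 4614 (1.13-fold lower). Eif2ak2, the kinase PKR that halts translation, stood at 908 and 720 (1.26-fold lower, percentile 13.4). Adar, which edits adenosines in paired RNA and so shields it from the sensors, stood at 1288 and 1111 (1.16-fold lower).

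In the list of other nucleic acid sensing genes, 40 of 48 had a row, of which 4 were at least 2-fold higher (10%) and 3 lower by as much (7.5%), where 5.14% and 5.25% of all rows were. Among those with a mean level of at least 100, 1 was higher and 0 lower. The median of the 40 was 0.05. Ticam1, the adaptor TRIF of Toll-like receptors, was higher at 76 and 162 (2.13-fold, percentile 96.0). The other 6 had levels under 100, and all of them but Dhx58 are named after their values were seen. Zbp1 (16 and 78), Tmem173 (18 and 75), which encodes STING, and Mb21d1 (37 and 84), which encodes cGAS, were higher in PB-Gbx2. Dhx58, Nlrx1 (66 and 24) and Ddx60 (22 and 7) were lower.

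Interferon signalling genes showed no difference past 1.5-fold, with 3 of 5 above 0, 2 below and a median of 0.06. The receptor chains went opposite ways. Ifnar1 stood at 1248 in PB and 1016 in PB-Gbx2 (1.23-fold lower, percentile 15.0), and Ifnar2 at 126 and 181 (1.44-fold higher, percentile 82.2). Of the transcript words of Ifnar2, 8.87% are shared with a transcript annotated as another gene. Stat2, which carries the signal from the receptor to the nucleus, stood at 2077 and 1508, 1.38-fold lower and at percentile 5.66. Irf9, its DNA-binding partner, stood at 406 and 454 (1.12-fold higher), and Irf1, an activator of class I and immunoproteasome genes, at 564 and 589 (1.04-fold higher).

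Among the other signalling genes, 25 of 31 had a row, and their median was -0.06. The receptor kinases Jak1 (1512 and 1454) and Tyk2 (1217 and 1115) differed by at most 1.09-fold. Irf2bp2, which encodes a protein that binds the repressor Irf2, alone passed 2-fold. It stood at 258 and 860, 3.33-fold higher and the top ratio of its level group. For Irf2bp2 the authors' deposited table lists an adjusted p of 0.0455.

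The interferon-induced effectors lacked a shared direction. The log2 ratio was positive for 3 of the 6 and negative for 3, with a median of -0.07. Oas1a, an oligoadenylate synthetase that activates RNase L, had a level of 132 in PB and 266 in PB-Gbx2, 2.02-fold higher at percentile 96.8. Its near copy Oas1g, named after its value was seen, which shares 57.6% of the Oas1a transcript words, stood at 130 in both libraries. The split of reads between these copies is uncertain, and with a pseudocount of 10 the difference of Oas1a was under 2-fold.

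Ifitm2 (8502 and 6724) and Ifitm1 (3148 and 2594), membrane proteins that hinder virus entry, were 1.26-fold and 1.21-fold lower, while Ifitm3 (581 and 637) was the higher in PB-Gbx2. Of the transcript words of Ifitm2, 48.5% occur in another annotated gene. Bst2, the tetherin that holds budding virus at the cell surface, stood at 914 and 745 (1.23-fold lower). Ifit2, a protein that binds foreign RNA, was near the low end of the table at 34 and 38. Of the other 5 effectors on the list none had a row.

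Of 100 other interferon-induced genes, 55 had a row, of which 2 were at least 2-fold higher (3.64%) and 4 lower by as much (7.27%). The median was -0.04. Tmem140 (32 and 16), named after its value was seen, has a ratio of levels of 2 but a log2 ratio of -0.96, and is not among the 4. Slfn9 (164 and 45, percentile 0.83) and Tdrd7 (120 and 42, percentile 4.28) were lower in PB-Gbx2, and Adap2 (70 and 185, percentile 97.7) and Slfn5 (63 and 138, percentile 96.1) were higher. Herc6 (36 and 6) and Parp10 (47 and 16), named after their values were seen, were lower at low levels. Over all 150 other pathway genes with a row, 7 were 2-fold or more higher (4.67%) and 11 lower by as much (7.33%), near the 5.14% and 5.25% of all rows.

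**Figure D4:**
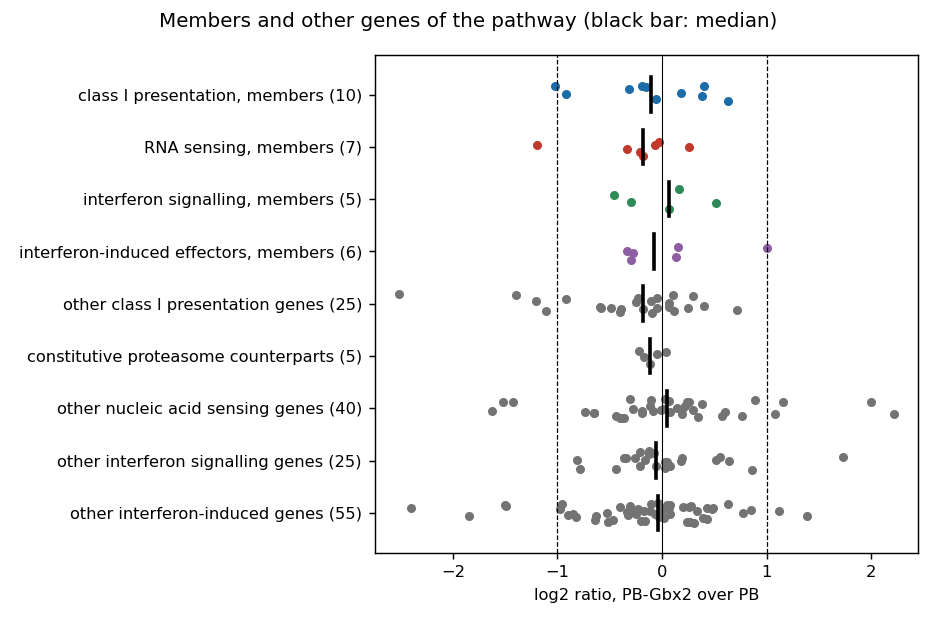
Log2 ratio of PB-Gbx2 over PB for the 28 genes by role (coloured) and the 150 other genes of the pathway by list (grey), with 1 point per gene, the number of genes in brackets, black bars at the medians and dashed lines at 2-fold. All medians lie between -0.18 and 0.06, and the points furthest out are H2-Q2 (-2.51), Herc6 (-2.40) and Zbp1 (2.22).

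The genes with an ISRE core in their windows did not all share a direction. Of the 11, 8 lay below 0 (Ddx58, Eif2ak2, Trim25, Adar, Stat2, Bst2, Ifitm2 and Psme1) and 3 above (B2m, Ifitm3 and Oas1a), with a median of -0.21. The other 16 genes with a window had a median of -0.05, with 9 below 0. Across the table, 10404 symbols matched a window. The 824 with the core had a median of 0.00, with 4.85% at least 2-fold higher and 5.34% lower by as much, against 4.42% and 4.52% of the 9580 without it. The word TTCNNNGAA, known as the gamma-activated sequence, was in 8.3% of all windows and in windows of 9 of the 27 genes, whose median was 0.06 with 5 above 0 and 4 below. Of the 837 symbols with it, 3.7% were at least 2-fold higher and 4.54% lower by as much, against 4.52% and 4.59% without it. Of the 55 symbols with the NF-kappa B word, 6 were higher (10.9%) and 7 lower (12.7%), against 4.42% and 4.54% of the 10349 without it. H2-K1, where the word was marked above, is itself among the 7. Symbols with and without the word were not matched by level, and the difference in these shares was not tested.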

How the data were processed

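Per the labels' protocols, Trizol was used to extract RNA and a TruSeq kit to make the libraries. STAR and the build mm9 are named in the submitters' processing notes, and the gene counter is not given in the sources. The authors deposited 1 table, whose levels per library are normalized, rounded values treated here as a score and not as read counts. The authors deposited also the mean level, a ratio (fold change) of PB over PB-Gbx2, the log2 of that ratio, and a p-value with its adjusted value. Depth is unknown, so no interval or floor is given.

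From the levels, log2 ratios of (level + 1) were computed for all 14501 rows and no row was filtered. The plan had left the unit open, and the ratio suits any linear level. The members and gene lists were chosen with earlier results of these data known. Named were every member with a row, Gbx2, other pathway genes at least 2-fold apart that reached a level of 100, the constitutive proteasome subunits, Jak1, Tyk2, Nlrc5 and Dhx58; exceptions are marked. A gene that the rule covers is not reported here. Promoter windows are RefSeq, matched by symbol, and shared words were counted in GENCODE M21 transcripts. The ratio and motif steps were tested on simulated data. Alternatives were pseudocounts of 0.1 and 10, minimum mean levels of 10 and 100, rescaling by a mean trimmed by 30 percent per side or by 77 ribosomal protein genes, and a 1.5-fold limit. Python 3.11.15, numpy 2.4.6 and pandas 2.3.3 were used.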

Additional observations from a re-analysis of the deposited data

How the results depend on the processing

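No paired analysis was possible because there is a single library per vector, and leaving out a library was not an option. Both rescalings left the ratios in place, since the levels already share one distribution, and a mean level of at least 10 removed 0 listed genes, so these settings say nothing about stability. Of 140 results for the lists under the other settings, 118 stayed within 1.5 times the count or within 0.2 of the median log2 ratio. With the other pseudocounts, 56 of 56 single member results kept direction and size to within 1.5-fold. Members had levels of at least 30, where these pseudocounts cannot give another outcome, so this too says nothing about stability. With a pseudocount of 10, Oas1a dropped under 2-fold, which left 0 effectors and 0 of all members at least 2-fold higher. At a mean level of at least 100 the effector median was -0.28, other sensing genes had 1 higher and 0 lower, and other interferon-induced genes 1 lower. With a 1.5-fold limit, class I members had 1 higher and 2 lower, all members 2 higher, other class I genes 1 higher, other sensing genes 7 higher and 6 lower, other signalling genes 3 and 2, and other interferon-induced genes 5 and 11. A setting chosen after seeing the data left out the 29 listed genes, 5 of them members, that share over 10% of their 50-base words with another gene. There the class I member median turned to 0.0588 (8 genes), the effector median was -0.28 (3 genes), effectors and all members had 0 higher, and other class I genes and other interferon-induced genes had 2 lower each.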

Other observations

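Values of single class II genes and further genes of the major histocompatibility complex, counted above only as part of the locus or of marker sums, are given here. The class II chains H2-Ab1 (60 in PB and 41 in PB-Gbx2) and H2-Eb1 (50 and 114) went opposite ways, and the invariant chain Cd74 stood at 142 and 191. The peptide exchange genes H2-DMa (142 and 110) and H2-DMb1 (72 and 48) were lower in PB-Gbx2, as was H2-Oa (27 and 11). The complement genes C4a (68 and 166) and C4b (15 and 27) were higher, and the cytokine gene Ltb (71 and 16) and the epithelial ligase gene Trim40 (102 and 12) lower. These genes were chosen after their values were seen.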
